A study of Mus musculus with 4 samples.

Results

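The 10 genes described here make prostaglandins, break them down or sense prostaglandin E2: Pla2g4a, Ptgs1, Ptgs2, Ptges, Ptges2, Ptges3, Hpgds, Hpgd, Ptger2 and Ptger4. They were chosen by name as members of that pathway, with earlier results of these data known. They are 10 of 22911 genes named on the array, with 13 of its 56605 RNA probes. RNA came from RAW264.7, a macrophage-like mouse cell line from a culture collection, and was read on a 1-colour Agilent array. There were 4 groups with 1 array each: non-targeting control siRNA with DMSO, control siRNA with lipopolysaccharides (LPS, a bacterial cell wall component), an siRNA SMARTpool against Ruvbl2 with DMSO, and the same pool with LPS. The pool is spelled siRvbl2 in the sample titles, and the series title names RUVBL2, an ATPase of chromatin remodelling and chaperone complexes. The cells of all groups had been transfected and were studied 2 days later, by electroporation or with a transfection reagent. The labels used here state neither which of these was used nor how much LPS was added or for how long. The series asks what RUVBL2 does for the inflammatory genes that LPS turns on, and the prostaglandin genes are among the classical ones.

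Prostaglandin synthesis starts when a phospholipase releases arachidonic acid from membranes, and the cyclooxygenases turn it into prostaglandin H2. Terminal synthases then make prostaglandin E2, D2 or other prostanoids, 15-hydroxyprostaglandin dehydrogenase inactivates them, and G protein-coupled receptors sense them. In macrophages the inducible cyclooxygenase and the microsomal prostaglandin E synthase are known LPS-responsive genes, and prostaglandin E2 acts back on the same cells through receptors that raise cyclic AMP.

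A level below is the log2 processed signal of a probe minus the 75th percentile of all RNA probes on its array, so that 0 is that percentile. Where several probes name a gene, the brightest on average stands for it. The rule for calling a gene higher or lower was a log2 difference of at least 1 (2-fold) with the brighter array well above background by the scanner software. Each group is a single array, so no value has a replicate error or a p-value, and precision is limited by how few arrays there are. The technical SD given beside a difference comes from probes printed 10 times on each array, and leaves out the spread between cultures, RNA preparations and labelling reactions. Levels of different probes cannot be set against each other. In a culture, fewer cells with a transcript and less of it per cell cannot be told apart.

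The 4 arrays were alike in depth, with 54.1% to 55.0% of RNA spots well above background and 0 saturated. The slide held the control siRNA pair in its row 1 and the Ruvbl2 siRNA pair in its row 2, so an effect of row cannot be told apart from that of the siRNA. By its brighter probe, Ruvbl2 with its siRNA was 79.2% of control in DMSO (-0.34 on the log2 scale, technical SD 0.07) and 75.7% in LPS (-0.40, 0.07). Its dimmer probe gave 68.5% (-0.55, 0.26) and 92.2% (-0.12, 0.26). Of 9 macrophage markers 8 were well above background on every array, with Mertk the exception. The same held for 2 of 7 mast cell markers (Tpsb2 and Hdc), 1 of 6 fibroblast markers (Col1a2) and 0 of 4 epithelial markers (Krt18 on 1 array). It also held for 2 of 5 T and B cell markers (Cd3e and Cd3d) and 1 of the 4 neutrophil markers on the array (Elane). S100a8, another neutrophil marker, was detected on 3 arrays and was at least 5.39 higher on the log2 scale with LPS with control siRNA. Kit, Cpa3, Col1a1, Pdgfra, Epcam and Cdh1 were well above background on none, and what such markers contribute to the results below was not tested.

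Ptgs2 and Ptger2 were higher, and Hpgd was lower, while Pla2g4a, Ptgs1, Ptges2 and Ptges3 differed by less than 2-fold on every pair of arrays. With control siRNA, 2 of the 10 genes were called higher with LPS and 1 lower, where 5.74% and 2.21% of the 13512 genes compared were. With Ruvbl2 siRNA 1 was higher and 1 lower, against 4.14% and 2.07% of 13517 genes. The median difference of the 10 genes was 0.10 and 0.06 in these comparisons, and that of all genes compared was 0.00 and -0.03. Under LPS, 0 were higher and 2 lower with Ruvbl2 siRNA, against 1.06% and 1.46% of 13472 genes. In DMSO none of the 9 genes that could be compared was called between the siRNAs (1.01% of 13418 genes were higher and 0.537% lower). No p-value can be given for any of these counts. The genes were chosen with earlier results of these data known, so the counts and shares cannot show an excess.

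**Figure D1:**
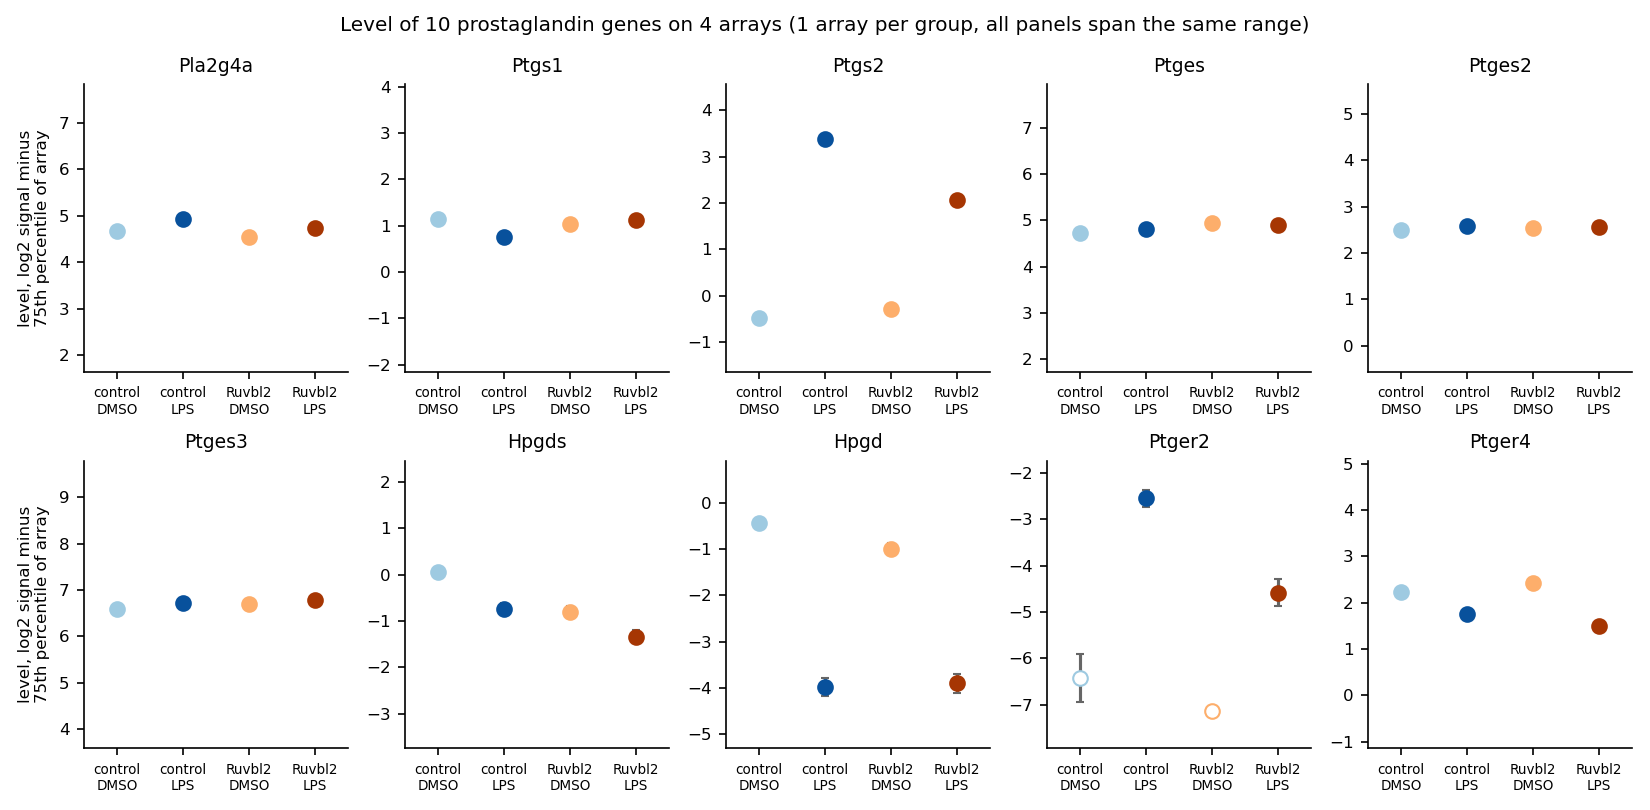
Level (y axis, log2 signal minus the array's 75th percentile) of the 10 genes on the 4 arrays (x axis, siRNA and treatment), 1 panel per gene, each spanning the same range. Filled points were well above background, open points were not, and bars are the technical SD of a spot, smaller than the point where none is seen. Ptgs2 lies at -0.47 and -0.28 in DMSO and at 3.38 and 2.06 in LPS, and Hpgd at -0.43 and -0.999 in DMSO and at -3.98 and -3.90 in LPS.

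Release of arachidonic acid by Pla2g4a, the cytosolic phospholipase A2, showed little movement in its transcript. Its level was 4.68 with control siRNA in DMSO, 4.92 with control siRNA in LPS, 4.55 with Ruvbl2 siRNA in DMSO and 4.73 with Ruvbl2 siRNA in LPS. Both LPS arrays were above the DMSO array of the same siRNA, by 0.24 and 0.18 (technical SD 0.07 each), and both Ruvbl2 siRNA arrays were below their control, by 0.14 and 0.19. These differences exceed the technical SD and are far under 2-fold.

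Ptgs1 encodes the constitutive cyclooxygenase. Its level was 1.14 and 0.75 on the control siRNA arrays in DMSO and LPS, and 1.04 and 1.12 on the Ruvbl2 siRNA arrays in the same order. The control siRNA LPS array is the low value and the other 3 lie within 0.10 of each other. LPS against DMSO thus gave -0.38 (technical SD 0.12) with control siRNA and 0.09 (0.11) with Ruvbl2 siRNA, and under LPS Ptgs1 was 0.37 (0.12) higher with Ruvbl2 siRNA, none past the 2-fold rule.

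Ptgs2 encodes the inducible cyclooxygenase and was the only member called with LPS with both siRNAs and also between the siRNAs under LPS. Its processed signal was 328 with control siRNA in DMSO, 4127 with control siRNA in LPS, 272 with Ruvbl2 siRNA in DMSO and 1695 with Ruvbl2 siRNA in LPS. The levels were -0.47, 3.38, -0.28 and 2.06 in the same order, so both LPS arrays stood above both DMSO arrays and the Ruvbl2 siRNA LPS array lay between. LPS gave a difference of 3.86 (14.5-fold, technical SD 0.12) with control siRNA and of 2.34 (5.07-fold, 0.12) with Ruvbl2 siRNA. Only 44 of 13512 genes had a higher LPS difference with control siRNA, and 108 of 13517 with Ruvbl2 siRNA. In DMSO Ptgs2 was 0.19 (0.14) higher with Ruvbl2 siRNA, which turned to -0.11 when arrays were scaled on spike-in RNA. In LPS it was 2.51-fold lower (-1.33, 0.10). The difference between the LPS effects was -1.52 (0.17), and 34 of 12471 genes well above background on all arrays had a lower value. Among those genes 0.513% were called higher and 1.18% lower, and Ptgs2 was the 1 member called of the 9 that could be compared.

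The promoters of 4 genes are shown because their genes moved with LPS in these data by at least 1 probe: Ptgs2 and Ptger2, higher with LPS and lower with Ruvbl2 siRNA under LPS, Hpgd, lower with LPS, and Ptges, whose probes disagree. They are the 250 bases before the start of each gene, from RefSeq on GRCm38.p6, written 5′ to 3′ on the gene's strand: Ptgs2 at chr1:150099781-150100030 on the plus strand, Ptger2 at chr14:44987861-44988110 on the plus strand, Hpgd at chr8:56294302-56294551 on the plus strand and Ptges at chr2:30903298-30903547 on the minus strand. Capitals mark matches to the motifs searched.
Ptgs2: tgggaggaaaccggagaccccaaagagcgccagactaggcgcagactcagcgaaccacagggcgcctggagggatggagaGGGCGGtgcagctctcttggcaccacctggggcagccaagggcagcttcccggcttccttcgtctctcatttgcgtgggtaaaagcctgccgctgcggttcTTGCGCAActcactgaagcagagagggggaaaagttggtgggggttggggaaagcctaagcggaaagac
Ptger2: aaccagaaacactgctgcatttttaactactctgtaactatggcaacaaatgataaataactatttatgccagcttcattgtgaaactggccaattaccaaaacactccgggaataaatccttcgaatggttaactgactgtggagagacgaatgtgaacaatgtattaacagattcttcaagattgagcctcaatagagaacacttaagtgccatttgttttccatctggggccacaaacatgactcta
Hpgd: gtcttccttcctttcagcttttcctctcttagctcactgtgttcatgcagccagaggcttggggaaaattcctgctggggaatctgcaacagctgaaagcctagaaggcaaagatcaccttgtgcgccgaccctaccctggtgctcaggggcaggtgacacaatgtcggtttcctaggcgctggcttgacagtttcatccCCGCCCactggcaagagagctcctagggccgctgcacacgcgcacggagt
Ptges: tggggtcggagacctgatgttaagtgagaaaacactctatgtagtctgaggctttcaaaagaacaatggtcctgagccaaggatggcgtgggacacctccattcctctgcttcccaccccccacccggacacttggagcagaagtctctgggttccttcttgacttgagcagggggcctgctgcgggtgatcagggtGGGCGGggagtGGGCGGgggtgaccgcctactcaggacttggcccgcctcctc

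Motifs were searched on both strands of 32851 promoters of the same length. The TATA box, TATAAA, was in 12.4% of them, and the AP-1 motif, TGANTCA, in 6.75%. The core of the cyclic AMP element, TGACG, was in 17.8%. The E-box, CACGTG, was in 6.02%. The C/EBP motif, spelled TTNNGCAA, was in 9.56%, and the GC box, GGGCGG, in 32.7%. The NF-kB motif was in 3.90%. Ptgs2 held a C/EBP match from -69 to -62 and a GC box from -170 to -165, counted back from the gene's start. Hpgd held 1 GC box from -50 to -45, Ptges held 2, from -53 to -48 and from -42 to -37, and Ptger2 held no match. No match in these 4 windows overlapped another. The windows also differ in composition: GC content was 61.6% with 13 CpG dinucleotides for Ptgs2, 56.8% with 9 for Hpgd, 59.6% with 8 for Ptges and 38.0% with 3 for Ptger2, and the medians over all promoters were 52.4% and 6. A match describes letters and does not show that a factor binds there. Bases outside these windows, on either side, were not searched, so a motif not found here may lie there.

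Ptges, the microsomal prostaglandin E synthase coupled to the inducible cyclooxygenase, is covered by 3 probes that give different answers. The array annotation gives all 3 the same RefSeq transcript, and none dropped to background on any array. The brightest, A_55_P1974193, had levels of 4.72 and 4.82 with control siRNA in DMSO and LPS and of 4.95 and 4.90 with Ruvbl2 siRNA, so its LPS differences were 0.10 and -0.04 (technical SD 0.07 each). The dimmer A_51_P312327 had levels of -2.28 and -0.13 with control siRNA and of -1.94 and -0.22 with Ruvbl2 siRNA. LPS therefore gave 2.15 (4.45-fold higher, 0.21) and 1.72 (3.30-fold higher, 0.21) by that probe. The third, A_55_P1974189, went from -3.56 to -1.63 and from -3.18 to -1.59, which is 1.93 (3.81-fold, 0.27) and 1.59 (3.01-fold, 0.27). Both dimmer probes thus passed the 2-fold rule with either siRNA, and the probe that stands for the gene by brightness did not. By none of the 3 probes did the siRNAs differ by 2-fold: the differences were 0.23, 0.34 and 0.38 in DMSO and 0.08, -0.09 and 0.04 in LPS, and the first of them was -0.08 with spike-in scaling. If Ptges is read from either dimmer probe, the LPS counts become 3 of 10 higher with control siRNA and 2 of 10 with Ruvbl2 siRNA. The probe sequences were not analysed here, and the cause of the disagreement was not tested.

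**Figure D2:**
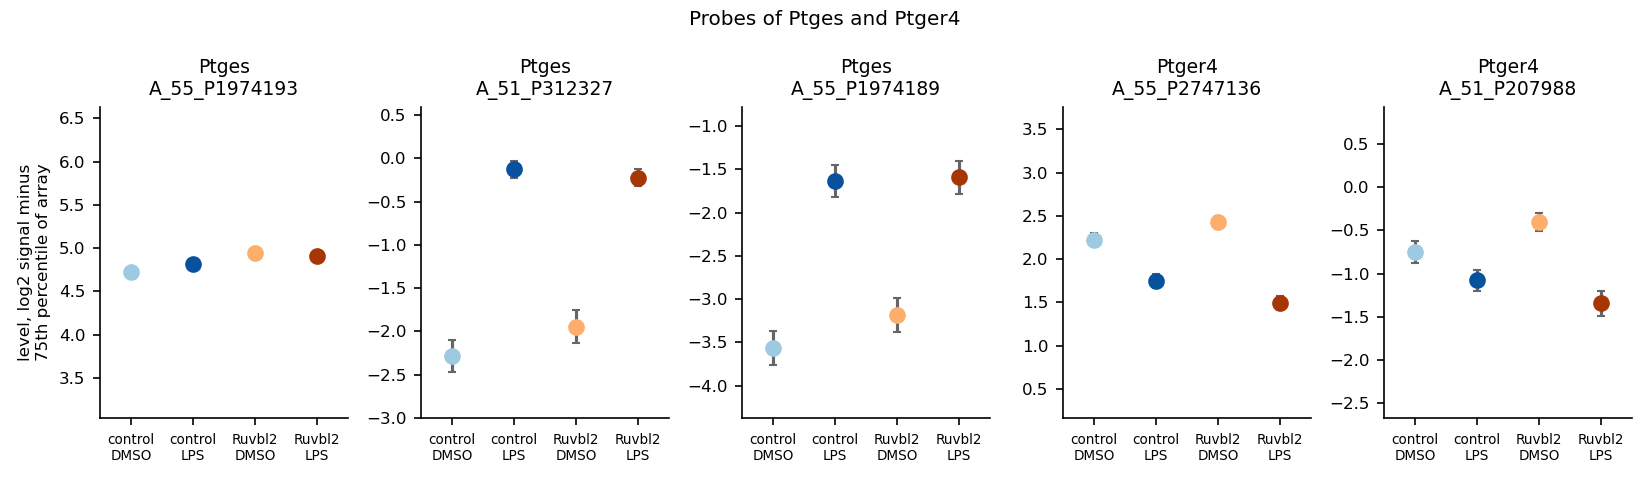
Level (y axis, log2 signal minus the array's 75th percentile) of the 3 probes of Ptges and the 2 probes of Ptger4 on the 4 arrays (x axis), with panels of equal span and bars of the technical SD of a spot. Both dimmer Ptges probes are higher on the LPS arrays (2.15 and 1.93 with control siRNA) and the brightest is not (0.10), while both Ptger4 probes are lower on the LPS arrays.

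The other prostaglandin E synthase genes were flat. Ptges2, a membrane-associated synthase, had levels of 2.49 and 2.58 with control siRNA in DMSO and LPS and of 2.54 and 2.57 with Ruvbl2 siRNA, and no difference between arrays passed its technical SD of 0.09. Ptges3, the cytosolic synthase that is also the HSP90 co-chaperone p23, had levels of 6.58, 6.71, 6.70 and 6.78 in the same order. Its 4 pairwise differences lay between 0.07 and 0.13 with technical SDs of 0.06.

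Hpgds, the hematopoietic prostaglandin D synthase, was lower with LPS and lower with Ruvbl2 siRNA, in steps under 2-fold. Its level was 0.05 with control siRNA in DMSO, -0.75 with control siRNA in LPS, -0.80 with Ruvbl2 siRNA in DMSO and -1.34 with Ruvbl2 siRNA in LPS. The control siRNA DMSO array was the highest, the Ruvbl2 siRNA LPS array the lowest, and the other arrays lay between, close to each other. The siRNA difference was -0.85 (technical SD 0.15) in DMSO, lower than in all but 129 of 13418 genes, and -0.60 (0.19) in LPS. With spike-in scaling the DMSO value was -1.15, past the 2-fold rule. LPS gave -0.79 (0.15) with control siRNA and -0.54 (0.19) with Ruvbl2 siRNA, and the difference between those effects, 0.25 (0.24), was about the size of its technical SD. Hpgds is a mast cell gene as well: of 7 mast cell markers, Kit, Cpa3, Mcpt4 and Ms4a2 were well above background on no array. The summed level of the list was -1.83 and 0.92 with control siRNA in DMSO and LPS and -0.46 and -0.35 with Ruvbl2 siRNA. Single genes carried these sums: Hdc went from -3.01 to 0.76 with LPS with control siRNA, and Cma1 was at -1.19 on the Ruvbl2 siRNA DMSO array. Hdc and Tpsb2 were detected on each of the 4 arrays, and Cma1 was so on the Ruvbl2 siRNA DMSO array alone.

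Hpgd encodes 15-hydroxyprostaglandin dehydrogenase, the first enzyme of prostaglandin breakdown, and had among the lowest LPS differences of all genes compared. Its processed signal was 338 with control siRNA in DMSO, 25.1 with control siRNA in LPS, 166 with Ruvbl2 siRNA in DMSO and 27.2 with Ruvbl2 siRNA in LPS. The levels were -0.43, -3.98, -0.999 and -3.90, so both LPS arrays were low and close to each other. The LPS difference was -3.54 (11.7-fold lower, technical SD 0.22) with control siRNA, and 1 of 13512 genes lay below it. With Ruvbl2 siRNA it was -2.90 (7.49-fold lower, 0.24), and 3 of 13517 genes lay below. After normexp background correction with quantile normalization the differences were -2.02 and -1.59, still past 2-fold. In DMSO Hpgd was lower with Ruvbl2 siRNA by -0.57 (0.16), not past 2-fold, and in LPS the siRNAs differed by 0.07 (0.28), less than the technical SD. The siRNAs thus stood further apart in DMSO than in LPS, and the difference of the effects was 0.64 (0.32). On the LPS arrays Hpgd lay near the lowest detected level, -4.83 with control siRNA and -4.82 with Ruvbl2 siRNA. What this does to the siRNA difference in LPS was not tested.

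Both prostaglandin E2 receptors listed raise cyclic AMP, and their transcripts stood on opposite sides of the DMSO level after LPS. Ptger2, which encodes the EP2 receptor, was well above background on the 2 LPS arrays alone. Its level was -2.55 with control siRNA in LPS and -4.58 with Ruvbl2 siRNA in LPS, and its undetected DMSO values were -6.42 and -7.14. Taking the lowest detected level of the DMSO arrays (-5.15 and -4.83) as the floor, Ptger2 was at least 6.10-fold higher with LPS with control siRNA and at least 1.19-fold higher with Ruvbl2 siRNA, which is not past the rule. The bounds rest on different floors and cannot be set against each other. On the LPS arrays, where both values were measured, Ptger2 was 4.10-fold lower with Ruvbl2 siRNA (-2.04, technical SD 0.35), and 14 of 13472 genes lay below it. The processed signal behind this was 67.7 against 17.0, and after normexp correction with quantile normalization the difference was -0.81, under 2-fold. Ptger2 could not be compared between siRNAs in DMSO.

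Ptger4, which encodes the EP4 receptor, was lower with LPS by both of its probes. The brighter, A_55_P2747136, had levels of 2.22 and 1.75 with control siRNA in DMSO and LPS and of 2.42 and 1.49 with Ruvbl2 siRNA. The LPS difference was -0.48 (technical SD 0.11) with control siRNA and -0.93 (0.11) with Ruvbl2 siRNA, the latter 1.91-fold lower and just short of the rule. The dimmer probe, A_51_P207988, gave -0.33 (0.18) and -0.94 (0.17). Between siRNAs the brighter probe gave 0.20 (0.10) in DMSO and -0.25 (0.11) in LPS, and the DMSO value was -0.10 with spike-in scaling. The difference of the LPS effects was -0.45 (0.15) by the brighter probe and -0.61 (0.25) by the dimmer.

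**Figure D3:**
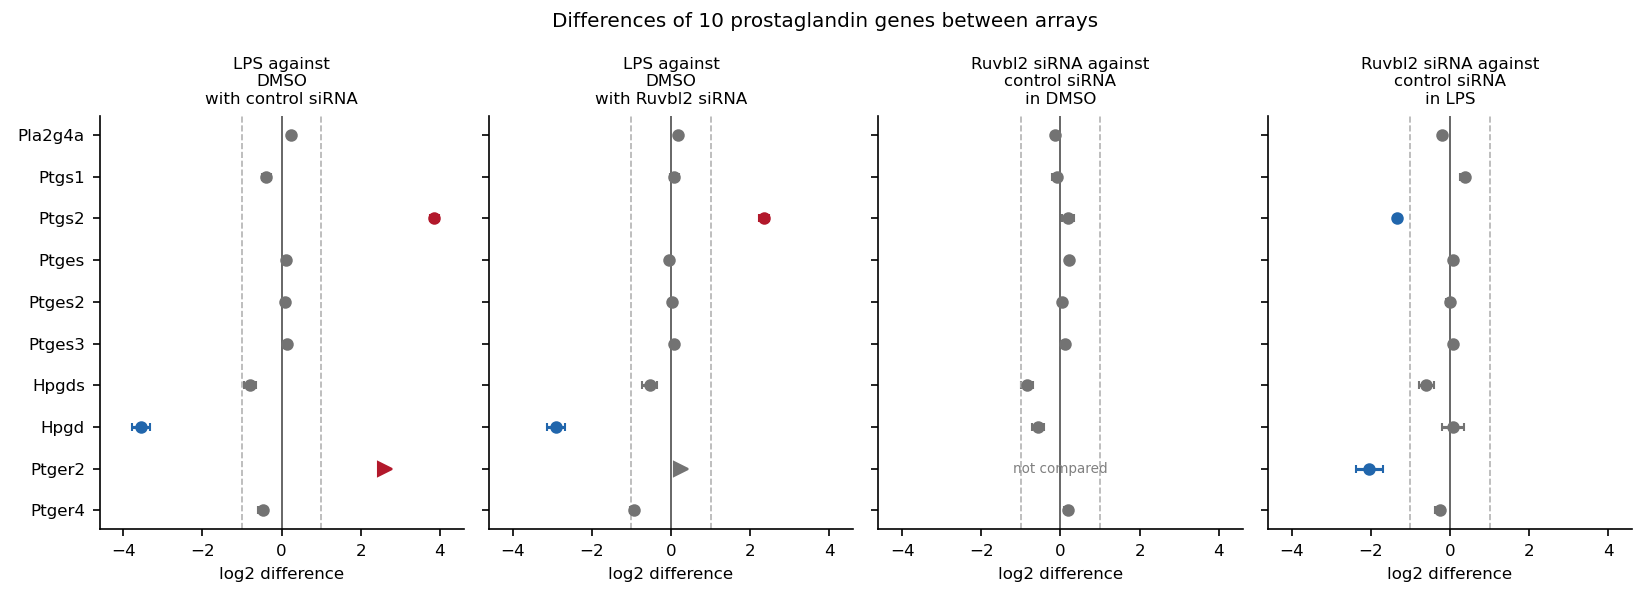
Log2 difference (x axis) of each of the 10 genes (y axis) in the 4 pairwise comparisons, with bars of 1 technical SD and dashed lines at 2-fold. Red marks called higher, blue called lower and grey neither, and triangles mark a difference from an array on which the gene was not well above background. Ptgs2 (3.86 and 2.34) and Hpgd (-3.54 and -2.90) are called with LPS with both siRNAs, and Ptgs2 (-1.33) and Ptger2 (-2.04) between siRNAs under LPS.

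The siRNA comparison in LPS and the LPS comparison with control siRNA share the control siRNA LPS array, so their values are given side by side and not as separate evidence. For Ptgs2 they were -1.33 and 3.86, for Ptger2 -2.04 and at least 2.61, for Hpgd 0.07 and -3.54, for Hpgds -0.60 and -0.79, for Ptger4 -0.25 and -0.48, and for Ptgs1 0.37 and -0.38. In the plot of LPS differences with each siRNA, which come from separate arrays, Ptgs2 lies below the line of equal difference and Hpgd slightly above it.

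**Figure D4:**
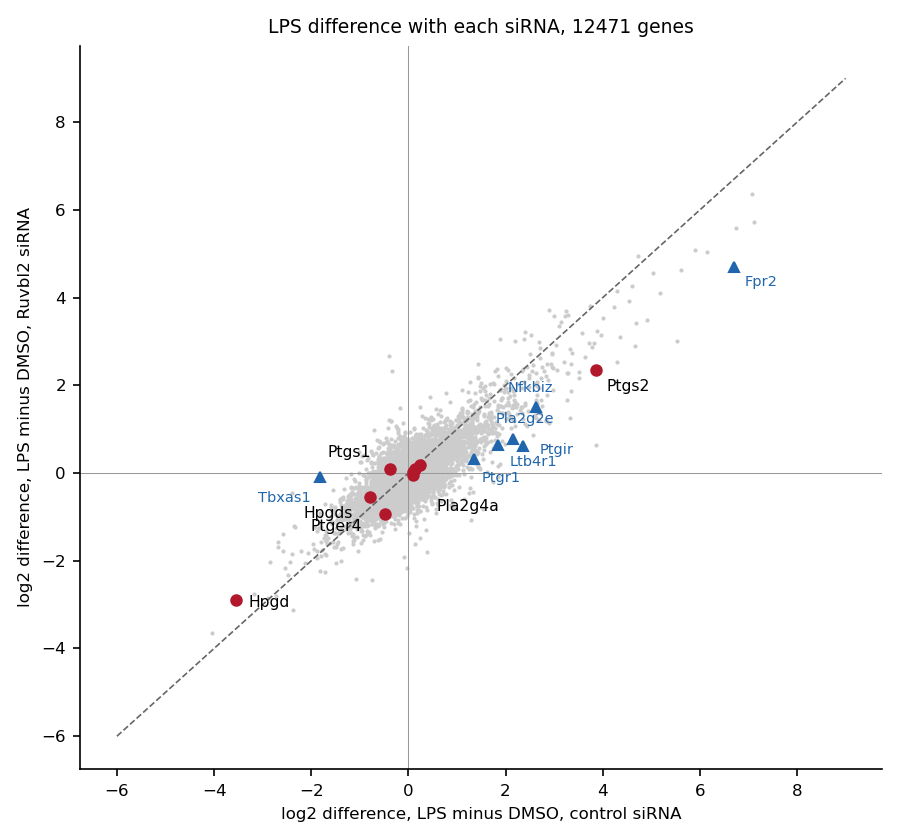
LPS minus DMSO on the log2 scale with Ruvbl2 siRNA (y axis) against the same with control siRNA (x axis) for the 12471 genes detected above background on each of the 4 arrays (grey). Red points are the 9 prostaglandin genes among them, blue triangles other pathway genes whose LPS differences differed by at least 1, and the dashed line is equality. Ptgs2 is at 3.86 and 2.34, Hpgd at -3.54 and -2.90, and Tbxas1 at -1.82 and -0.09.

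The rest of the pathway was read from 7 lists holding 101 genes, of which 100 were on the array and 78 well above background on all 4 arrays. Of 80 of these compared with control siRNA, 12 were higher with LPS and 4 lower, and with Ruvbl2 siRNA 8 of 82 were higher and 3 lower. The shares over all genes, given above, were 5.74% and 2.21%, and 4.14% and 2.07%. Between the siRNAs 0 of 79 were higher and 1 lower in DMSO, and 1 of 81 was higher and 6 lower in LPS, beside 1.01% and 0.537% of all genes in DMSO and 1.06% and 1.46% in LPS. The lists were chosen with earlier results of these data known, so these counts and shares cannot show an excess. Among the 20 genes of arachidonate supply compared, 2 were higher with LPS with control siRNA and 0 lower, with a median of 0.22 beside 0.00 for all genes. Both were secreted phospholipases: Pla2g5 was 5.62-fold higher with control siRNA and 4.72-fold with Ruvbl2 siRNA, and Pla2g2e was higher by 2.15 with control siRNA and by 0.77 with Ruvbl2 siRNA. The difference of the Pla2g2e effects was -1.37 (technical SD 0.20). Acsl4, which activates arachidonic acid for return to membranes, differed by 0.37 with LPS with control siRNA by its brightest probe and by 1.63 and 1.59 by its other probes. It was singled out after its values were seen.

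The list of terminal prostanoid synthases also holds related glutathione transferases. Of its 6 genes compared, 0 were higher and 2 lower with LPS with control siRNA, where 5.74% and 2.21% of all genes were. Those lower were the synthase gene Tbxas1 and the transferase gene Mgst3. Tbxas1, which makes thromboxane A2, had levels of -1.41 and -3.22 with control siRNA in DMSO and LPS and of -2.31 and -2.40 with Ruvbl2 siRNA. It was therefore 3.52-fold lower with LPS with control siRNA and differed by -0.09 (technical SD 0.26) with Ruvbl2 siRNA. The difference of the effects, 1.72 (0.36), was past the rule under every scaling tried (1.12 to 2.02). Mgst3, a glutathione transferase of the same superfamily as Ptges, was 2.53-fold lower with LPS with control siRNA and 3.26-fold lower with Ruvbl2 siRNA, and Mgst2 was 2.37-fold higher with Ruvbl2 siRNA under LPS. Ptgds and Ptgis, the lipocalin-type prostaglandin D synthase and the prostacyclin synthase, were well above background on no array.

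Breakdown and transport genes other than Hpgd were mostly above 0. Of 6 compared with control siRNA, 1 was higher with LPS and 0 lower, where 5.74% and 2.21% of all genes were. The list median was 0.57 beside 0.00 for all genes. Ptgr1, the reductase that acts after Hpgd, was 2.54-fold higher with control siRNA and higher by 0.32 with Ruvbl2 siRNA, where the list median was 0.11. The difference of its effects was -1.02 (technical SD 0.18), and under 1 in size with normexp correction and with spike-in scaling. Under LPS 5 of the 6 were below 0 between the siRNAs and none was called, with a median of -0.41 beside 0.005 for all genes.

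Of the 7 other prostanoid receptors, 2 could be compared with control siRNA and 1 was called higher with LPS, where 5.74% of all genes were. Ptgir, the prostacyclin receptor, had levels of -2.52 and -0.17 with control siRNA in DMSO and LPS and of -2.09 and -1.47 with Ruvbl2 siRNA. It was 5.10-fold higher with LPS with control siRNA, higher by 0.62 with Ruvbl2 siRNA, and 2.47-fold lower with Ruvbl2 siRNA under LPS. The last value was -0.89 on the log2 scale with normexp correction and quantile normalization. Ptger3, Ptgdr, Ptgfr and Tbxa2r were well above background on no array.

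Among 22 regulators of Ptgs2, 6 were higher with LPS and 1 lower with control siRNA, with a median of 0.25, and 6 were higher and 0 lower with Ruvbl2 siRNA, with a median of 0.01. Over all genes compared, 5.74% were higher and 2.21% lower with control siRNA, and 4.14% and 2.07% with Ruvbl2 siRNA. This list too was chosen with earlier results of these data known. It was not split by whether a gene raises or lowers Ptgs2, so its counts and medians give no direction for Ptgs2. The cytokine gene Il1b, not well above background in DMSO, was at least 233-fold and at least 73.3-fold higher. On the log2 scale these bounds were 7.864 and 6.196, as low as 5.005 and 3.823 under other settings, and 6.28 and 4.45 by its other probe. The nuclear IkB protein gene Nfkbiz was 6.22-fold and 2.86-fold higher, the C/EBP delta gene Cebpd 4.26-fold and 2.40-fold, and the cyclic AMP-responsive factor gene Crem differed by 1.67 and 1.71, but by 0.87 and 0.82 over the mean of its probes. The AP-1 subunit gene Fosl1 differed by 1.47 and 1.51, and Nfatc1, a transcription factor gene, was lower with control siRNA by -1.21. The other Nfatc1 probe gave -1.65 with control siRNA and -1.18 with Ruvbl2 siRNA. Celf2 was not called by its chosen probe, but 1 dimmer probe gave -1.46 and -1.78. The remaining Celf2 probes gave -0.31 and -0.41 with control siRNA, and -0.43 and -0.37 with Ruvbl2 siRNA. Zfp36, the remaining gene called higher with either siRNA, differed by 1.6 with control siRNA and by 1.1 with Ruvbl2 siRNA. In DMSO the 1 called gene was Atf3, a stress-responsive transcription factor gene, lower with Ruvbl2 siRNA (-1.18). Under LPS 3 were lower with Ruvbl2 siRNA and 0 higher: Atf3 (-1.86), Il1b (-1.38) and Nfkbiz (-1.27). Of all genes compared there, 1.46% were lower and 1.06% higher. The list median was 0.10 in that comparison, and 13 of the 22 genes were above 0. Genes of the NF-kB subunits Nfkb1 and Rela differed by 0.17 and 0.15 by their chosen probes, and the C/EBP beta gene Cebpb by 0.07. Nfkb1, Rela, Cebpb and Celf2 were singled out after their values were seen. The other Rela probe gave 0.7035 between the siRNAs in LPS and 0.8215 for the difference of effects. Cebpd was lower with Ruvbl2 siRNA in LPS, at a level of 5.401 against 5.88 with control siRNA, and was not called.

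**Figure D5:**
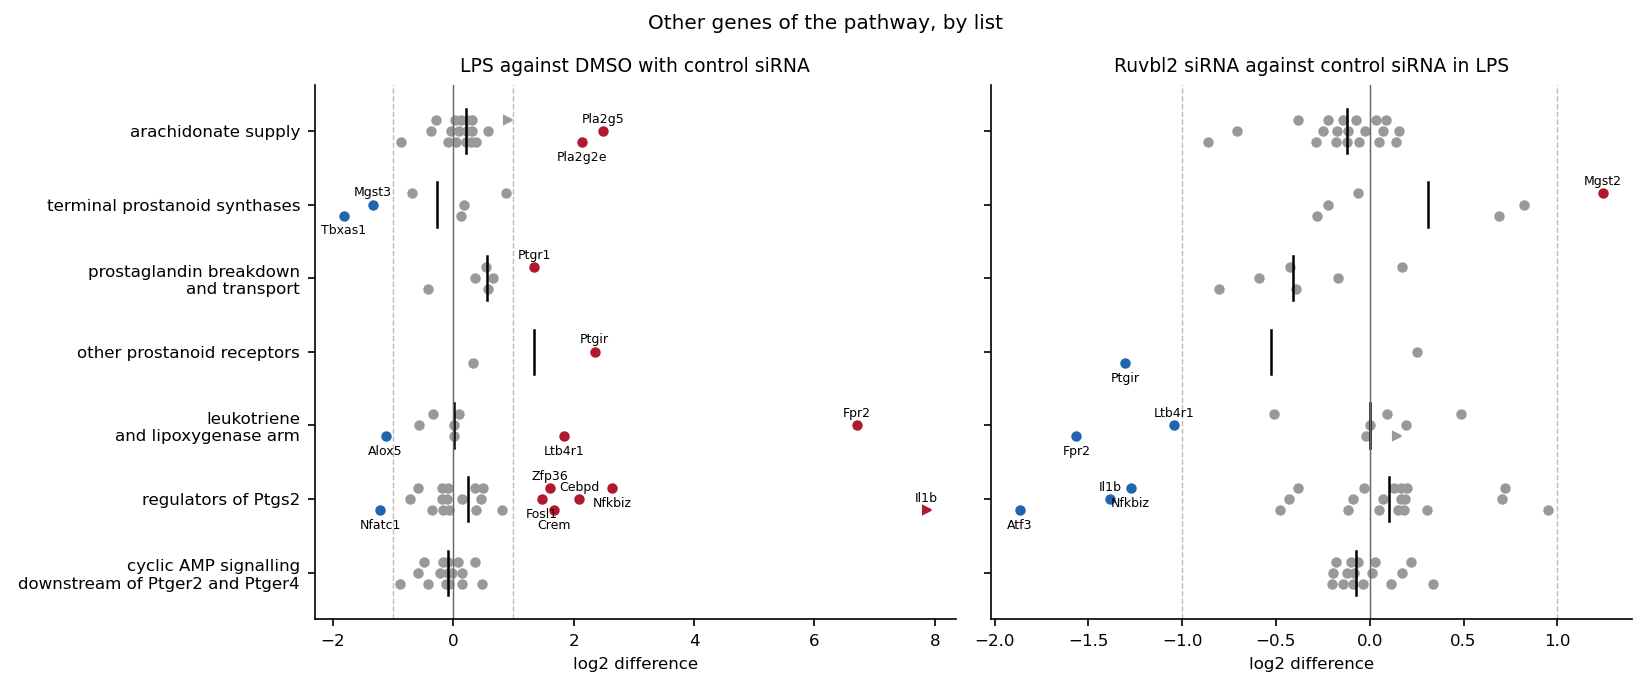
Log2 difference (x axis) of the genes of 7 pathway lists (y axis) for LPS against DMSO with control siRNA (left) and for Ruvbl2 siRNA against control siRNA in LPS (right), on different x scales. Red points are called higher, blue called lower and grey neither, triangles are differences from an array on which the gene was not well above background, and black bars are list medians. The called lower genes on the right are Atf3, Fpr2, Il1b, Ptgir, Nfkbiz and Ltb4r1, and the called higher gene is Mgst2.

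The genes whose pattern over the 4 arrays was most like that of Ptgs2 were Mbd1, Sqor, Wfdc17, Wdr92 and Bcl6b. Likeness was the Euclidean distance between levels after each gene's own mean was subtracted, over 4 arrays and 11631 genes, and these distances were 0.28, 0.29, 0.31, 0.37 and 0.49. Both probes of Sqor, a mitochondrial sulfide oxidase gene, shared the pattern, with LPS differences of 3.51 and 3.37 with control siRNA and of 2.17 and 1.88 with Ruvbl2 siRNA. Mbd1 and Wdr92 shared it by their chosen probe alone: the other 2 probes of Mbd1 gave -0.48 and -0.12 with LPS with control siRNA, and the other 3 probes of Wdr92 gave -0.02, 0.30 and -0.31. For Hpgd the nearest genes were Il4i1, St6gal1, Lsp1, Dgkg and Cd24a, at distances of 0.38, 0.51, 0.59, 0.72 and 0.86. All 3 probes of Lsp1, a leukocyte actin-binding protein gene, were lower with LPS, by -2.72, -2.96 and -2.86 with control siRNA.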

How the data were processed

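Total RNA was labelled with Cy3 and hybridized to 1 array per group. The authors' deposited processed signal is an intensity, the brightness of a spot with background subtracted and trends across the array removed, per the file headers, read with Agilent Feature Extraction 11.5.1.1 (11.0 per the submitters' processing notes), not normalized between arrays. Other deposited columns are 0 or 1 flags for background, outlier and saturated spots. The deposited value table holds the same numbers (62976 spots per array). SystematicName accessions were matched to a RefSeq mouse gene table (GRCm38.p6), which named 32994 of 56605 probes. The array header names mm9, so no positions were taken from the array; those of the promoters come from the RefSeq table on GRCm38.p6. Replicate spots were averaged after leaving out outliers. The technical SD is the median over the 20 replicated-probe values nearest in level, pooled over arrays. Few of those lie at middle levels: 13 values between -2 and 2.

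No test was possible with 1 array per group. The code for the differences was run on simulated arrays with large changes planted in bright genes. That run checks the code and not the differences reported here, and it covers no dim genes. The genes and lists were chosen with earlier results of these data known. The named genes were the 10 members, called list genes (up to 4 per direction and comparison, and Zfp36), key pathway genes, and the 5 genes most like Ptgs2 and Hpgd in pattern, without clone, Gm and LOC symbols. Alternatives were quantile normalization, median centring, cyclic loess and normexp (limma 3.58.1, R 4.3.3), spike-in scaling, the mean of probes, other filters and size rules, and single probes. Python 3.11.15 was used otherwise.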

Additional observations from a re-analysis of the deposited data

Results flagged for a closer look

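Ptgs2 and Ptger4 stood out because the siRNA difference had opposite signs in the 2 treatments, each beyond its technical SD. For Ptgs2 it was 0.191 in DMSO and -1.33 in LPS. For Ptger4 it was 0.199 in DMSO and -0.254 in LPS. With 1 array per group the difference between treatments was not tested. Both DMSO values turned negative with spike-in scaling, to -0.11 and -0.10.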

How the results depend on the processing

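With arrays scaled on 7 spike-in probes, all genes had a median of 0.34 for LPS with Ruvbl2 siRNA, of -0.26 between siRNAs in DMSO and of 0.26 for the difference of effects. The median spike-in level was 3.95 on the Ruvbl2 siRNA DMSO array and 3.57 to 3.64 elsewhere. Under it 24.6% of genes called between siRNAs in DMSO were higher, against 65.4% in the main analysis. For the difference of effects the share was 78.8% against 30.3%. Normexp correction plus quantile normalization gave 36.8% higher in DMSO and 25.5% in LPS (42.1% in the main analysis), and it called 451 genes higher and 150 lower with LPS with control siRNA, in place of 776 and 298. With spike-in scaling 90.2% of genes called with LPS with Ruvbl2 siRNA were higher, against 66.6%. With LPS, the total of called members was 2 to 4 with control siRNA (3 in the main analysis) and 2 or 3 with Ruvbl2 siRNA (2). Ptger2 lost its LPS call with control siRNA where the brighter array had to reach -2. The count of higher genes with Ruvbl2 siRNA went from 1 to 2 with the mean of probes or either dimmer Ptges probe (Ptges) and without the filter on dim probes (Ptger2). The 1.5-fold rule took the lower count from 1 to 2 with control siRNA (Hpgds) and with Ruvbl2 siRNA (Ptger4). Between siRNAs in DMSO 1 gene, Hpgds, was called with spike-in scaling and at 1.5-fold, in place of 0. In LPS 1 gene was called in place of 2 with normexp correction and quantile normalization, with the brighter array at a level of -2 or more (both Ptgs2) and at 3-fold (Ptger2). For the difference of effects 2 genes were called in place of 1 without a filter on dim probes (Ptgs2 and Ptger2) and at 1.5-fold (Ptgs2 and Hpgd), and 0 at 3-fold. Of 399 single values under alternatives, 336 were counted as unchanged and 0 of the called ones changed sign. Unchanged means moved by no more than the technical SD or, for a bound, which has none, keeping the same call. Some alternatives repeat the main value by design, such as the mean of probes for a gene with 1 probe. The count therefore does not measure how robust the values are. Normexp correction was run on the median spot signal, a choice made after seeing the data, and the planned form on the mean signal was not run. The readings of Ptges by its dimmer probes were also added after seeing the data. No paired analysis was possible because the groups hold 1 array each. Ptger2, whose signal lies near the floor, is the member most limited by signal over background: its LPS difference with control siRNA ranged from 1.03 to 2.68 over the scalings. The causes of these shifts were not tested.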

Other observations

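The leukotriene arm competes for the same arachidonic acid. Alox5, the lipoxygenase that starts it, had levels of 3.14 and 2.01 with control siRNA in DMSO and LPS and of 3.22 and 2.20 with Ruvbl2 siRNA. It was 2.17-fold lower with LPS with control siRNA and 2.02-fold with Ruvbl2 siRNA, and the second value fell short of 2-fold under normexp correction and under spike-in scaling. Alox5ap, its activating protein, differed by 0.10 and 0.20 with LPS, and Lta4h, which makes leukotriene B4, by 0.01 and -0.09. Ltc4s, which makes leukotriene C4, differed by -0.56 and -1.10, the second of which was -0.73 with spike-in scaling. The receptor genes differed among themselves. Ltb4r1, for leukotriene B4, differed by 1.84 with control siRNA (0.98 after normexp correction, short of the 2-fold rule) and by 0.64 with Ruvbl2 siRNA. Fpr2, a receptor for lipoxin A4 and formyl peptides, differed by 6.70 and 4.70, and by as little as 4.888 and 3.283 under other settings. Its DMSO levels, -4.14 with control siRNA and -3.70 with Ruvbl2 siRNA, lay near the lowest detected ones, -5.15 and -4.83. The other Fpr2 probe, not well above background in DMSO, gave bounds of 5.36 and 3.55. Ltb4r2, the other leukotriene B4 receptor, gave 0.01 and -0.32, and Cysltr1, for cysteinyl leukotrienes, -0.33 and -0.08. Under LPS Ltb4r1 and Fpr2 were lower with Ruvbl2 siRNA, by -1.05 (technical SD 0.25) and -1.56 (0.10), and Ltb4r1 was -0.55 with normexp correction and quantile normalization. Of 9 genes of this list compared in LPS, 2 were lower and 0 higher, with a median of 0.00. Of all genes compared there, 1.46% were lower and 1.06% higher. The list was chosen with earlier results of these data known.

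Cyclic AMP signalling genes downstream of Ptger2 and Ptger4 gave no call in any comparison by their chosen probes. Of 16 compared, the medians were -0.09 and -0.18 with LPS with control and Ruvbl2 siRNA, and the second was 0.19 with spike-in scaling. The arrestin gene Arrb1, which acts in receptor desensitization, differed by -0.88 and -0.89 with LPS, and the phosphodiesterase gene Pde4b by 0.14 and 0.08. The probes of Pde4d disagreed. Its chosen probe had levels of -1.885 and -1.968 with control siRNA in DMSO and LPS and of -2.177 and -2.005 with Ruvbl2 siRNA. Its other probes gave LPS differences of -0.94, -0.49, -0.95 and -0.89 with control siRNA. With Ruvbl2 siRNA they gave -1.15, -1.33, -0.67 and -1.06, the last of each being a bound. A dimmer Gnas probe gave -1.01 for the difference of effects. Lta4h, Ltb4r2, Cysltr1, Arrb1, Pde4b, Pde4d and Gnas were singled out after their values were seen.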
